A study of Mus musculus with 2 samples.

Results

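The genes described here encode receptor tyrosine kinases with a known part in melanoma. They were chosen by symbol from a list of 10 genes, Met, Kit, Axl, Tyro3, Mertk, Egfr, Erbb3, Igf1r, Pdgfra and Fgfr1, and each was read by 1 probe set. Of these, 9 had a named probe set among the 19505 named genes, and Pdgfra was not analysed here. The cells were B16F10, a mouse melanoma line that makes melanin. One population had received an expression plasmid for NRF3, a transcription factor encoded by Nfe2l3, and the other one for GFP, a fluorescent protein. Both had been transfected together with a puromycin resistance vector, selected with puromycin and then given forskolin, which activates adenylate cyclase, for 5 days. The labels call the lines stable and do not say whether they were pools or clones, nor which promoter drove the plasmids. Each population was measured on 1 array, so the differences carry no error and no p-value and compare these 2 RNA samples.

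Receptor tyrosine kinases are membrane proteins that bind a ligand outside the cell and phosphorylate tyrosines inside it. Adaptor proteins then bind these sites and start the RAS-ERK and PI3K-AKT pathways, while phosphatases and ubiquitin ligases end the signal. In the melanocyte lineage, KIT is needed for the survival and migration of precursor cells, and MITF, the master regulator of the lineage, activates Met. In human melanoma, high AXL marks a dedifferentiated state in which MITF is low.

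The deposited values are on a log2 scale made with the robust multi-array average (RMA). Genes count as detected here if at least 1 of their 2 values was 5.89 or more, which is the median over the named probe sets on both arrays. A gene can thus enter only through the array where it is higher. Counts of detected genes past 2-fold are therefore not independent of the difference, and the shares over all detected genes follow the same rule. The array also holds 5222 control rows whose names contain the word neg, with medians of 6.37 on the NRF3 array and 6.12 on the GFP array and upper quartiles of 7.85 on the NRF3 array and 7.52 on the GFP array. These control rows reach up to 19.5 on the NRF3 array and 18.8 on the GFP array, so they are not a plain background. The 23 rows for background by GC content had lower medians, 5.89 on the NRF3 array and 5.55 on the GFP array. Their highest values were 8.16 on the NRF3 array and 7.11 on the GFP array. Set against the rows named neg, a value under the control medians cannot be told from background. Nfe2l3 itself lay at 10.1 on the NRF3 array and 6.04 on the GFP array. Its GFP value lay under the control median, so the size of the difference depends on background. The labels do not name the species of the NRF3 sequence in the plasmid. How much of the NRF3 value came from the plasmid was not tested. All 8 melanocyte identity genes lay above these upper quartiles on both arrays, while 1 of 10 leukocyte markers, 0 of 10 fibroblast and endothelial markers and 0 of 9 epithelial markers were detected, the 1 being Cd8a, with 5.90 on the NRF3 array and 5.12 on the GFP array. In RNA from whole populations, fewer cells expressing a gene and less RNA per cell cannot be told apart.

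Of the 9 receptor genes analysed, Met and Axl had the largest differences, and the bases before their annotated starts are shown for that reason. A link between these bases and the differences was not tested. They come from RefSeq (GRCm38.p6), are the 250 bases before 1 annotated start each, and are written in the direction of the gene. The Met bases lie on the plus strand at chr6:17463707-17463956, and the Axl bases on the minus strand at chr7:25788734-25788983. The annotated span of either gene reaches past its start (chr6:17463349-17573980 for Met, chr7:25756500-25788924 for Axl), so other transcripts of these genes begin further upstream. Capitals mark the motifs found.
Met: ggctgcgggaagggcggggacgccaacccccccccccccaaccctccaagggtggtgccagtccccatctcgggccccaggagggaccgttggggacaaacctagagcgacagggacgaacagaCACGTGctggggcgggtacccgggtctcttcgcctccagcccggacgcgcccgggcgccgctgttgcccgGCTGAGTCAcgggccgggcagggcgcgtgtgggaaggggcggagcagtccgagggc
Axl: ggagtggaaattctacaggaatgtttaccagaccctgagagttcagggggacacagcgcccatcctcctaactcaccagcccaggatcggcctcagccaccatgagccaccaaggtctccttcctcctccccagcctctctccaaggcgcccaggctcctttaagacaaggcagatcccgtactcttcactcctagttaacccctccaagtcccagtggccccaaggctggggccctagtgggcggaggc
The motifs searched, on both strands, were TGANNNNGC, CATGTG and CACGTG. TGANNNNGC is a loose form of the core of the element that NRF-type factors bind with small MAF proteins. CATGTG and CACGTG are boxes that MITF-type factors bind. The Met bases held CACGTG 126 to 121 bases before the start, and TGANNNNGC on the opposite strand 56 to 48 bases before it. The stretch nearer the start overlaps TGAGTCA, the box of AP-1 factors, which was added to the search after the sequence was seen. Over 32851 such windows of all genes, 35.2% held TGANNNNGC, 12.3% CATGTG, 6.02% CACGTG and 4.46% TGAGTCA. The Met window was 74% G and C, beside a median of 52.4% over all windows. These shares were not matched for that content. The Axl window held none of these letters, nor did those of Kit, Tyro3, Mertk, Egfr, Igf1r and Pdgfra. Only 8 of the 10 listed genes had a window, and Erbb3 and Fgfr1 were not searched. A match is a description of the letters and not a site in use.

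Met, the receptor for hepatocyte growth factor, had the largest difference of the 9. Its log2 value was 14.5 on the NRF3 array and 11.6 on the GFP array, a difference of 2.88, or 7.37-fold higher in the NRF3 cells. Both values lay above most of the control rows, exceeding 99.3% of them on the NRF3 array and 98.0% on the GFP array. By its difference Met stood at position 14 among the 10162 detected genes, counted from the highest. Of the 1183 detected genes whose mean value lay within 1 log2 unit of that of Met, 2 had a difference as high or higher, Met included. The 50 nearest detected genes on chromosome 6 had a median difference of 0.09, so Met stood apart from its neighbours. The gene of its ligand, Hgf, read 3.35 on the NRF3 array and 3.23 on the GFP array and was not detected.

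The TAM receptors, Axl, Tyro3 and Mertk, bind the vitamin K-dependent proteins GAS6 and, for TYRO3 and MERTK, protein S, and act in clearance of dying cells and in tumour cell survival. Axl read 6.07 on the NRF3 array and 7.68 on the GFP array, a difference of -1.60, or 3.04-fold lower in the NRF3 cells. Only its GFP value lay above the upper quartile of the control rows, and the NRF3 value lay under their median. The size of the difference therefore depends on background. With both values raised to 6.37, the higher of the control medians, it was -1.30. With each raised to the upper quartile of the control rows on its array it was 0.18. That sign was fixed in advance, because the upper quartile on the NRF3 array, 7.85, lies above both values of Axl. The setting therefore cannot tell the direction. By its difference Axl stood at position 355 of the 10162 detected genes, counted from the lowest.

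Tyro3 was nearly level, with 7.88 on the NRF3 array and 7.64 on the GFP array, a difference of 0.24. Both values lay barely above the upper quartiles of the control rows. Mertk read 5.10 on the NRF3 array and 4.39 on the GFP array, both under the control medians, so its difference of 0.71 is not shown to be one of expression. Of their ligands, Pros1, which encodes protein S, read 7.03 on the NRF3 array and 8.38 on the GFP array, 2.56-fold lower in the NRF3 cells. Its NRF3 value lay between the median and the upper quartile of the control rows, so the size may depend on background. Gas6, with 4.22 on the NRF3 array and 3.95 on the GFP array, was not detected.

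**Figure D1:**
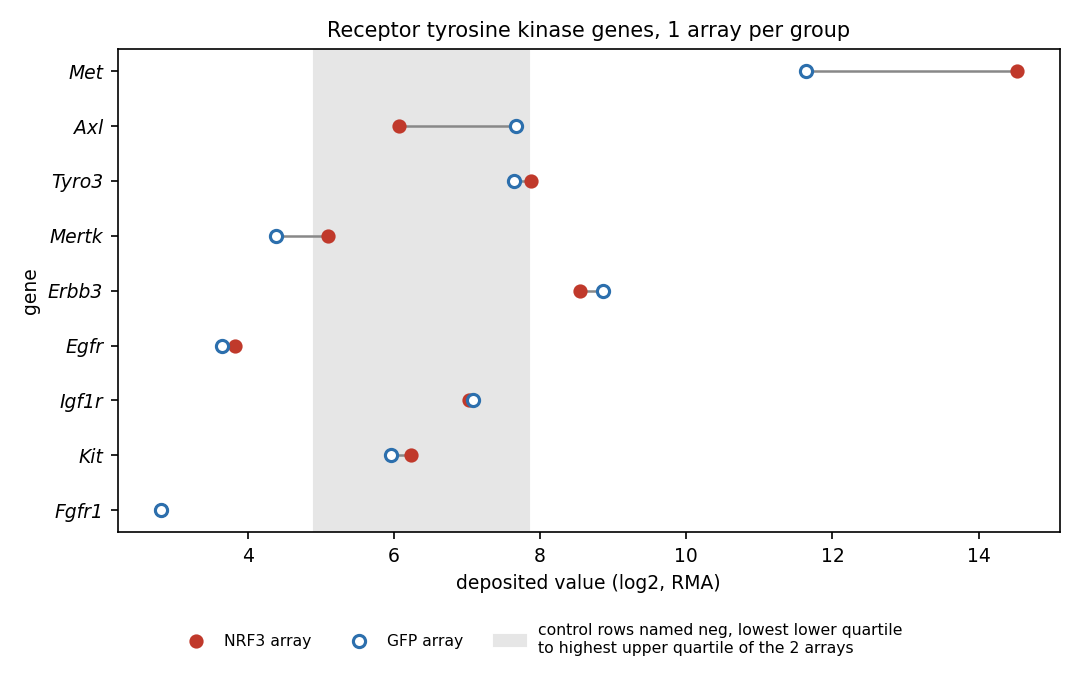
Deposited log2 RMA values (horizontal axis) of the 9 receptor genes with a named probe set, on the NRF3 array (filled) and the GFP array (open), 1 array per group; the grey band runs from the lowest lower quartile to the highest upper quartile of the control rows named neg (4.91 to 7.85). Met lay clear of the band on both arrays and was higher on the NRF3 array, Axl was lower on the NRF3 array within the band, and the points of Fgfr1 coincide.

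Of the ErbB receptors, Erbb3, the neuregulin receptor, whose own kinase is weak and which signals through a partner, was detected. It read 8.55 on the NRF3 array and 8.86 on the GFP array, a difference of -0.31 with both values above the upper quartiles of the control rows. Its usual partner Erbb2 differed more, with 6.92 on the NRF3 array and 8.44 on the GFP array, or 2.86-fold lower in the NRF3 cells. The NRF3 value of Erbb2 lay between the median and the upper quartile of the control rows, so the size may depend on background. Egfr, the receptor for epidermal growth factor, read 3.83 on the NRF3 array and 3.64 on the GFP array and was not detected. The neuregulin genes Nrg1 and Nrg2 lay under the control medians on both arrays, with differences of 0.06 and 0.08. Among the ligand genes of EGFR, Btc, which encodes betacellulin, was detected, with 6.39 on the NRF3 array and 6.49 on the GFP array.

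Igf1r, the receptor for insulin-like growth factors, read 7.03 on the NRF3 array and 7.08 on the GFP array. Its values were 0.04 apart and lay between the median and the upper quartile of the control rows on either array. Its ligand genes Igf1, with 6.37 on the NRF3 array and 6.13 on the GFP array, and Igf2, with 5.03 on the NRF3 array and 5.69 on the GFP array, stayed close to or under the control medians. The related insulin receptor gene Insr read 10.8 on the NRF3 array and 9.45 on the GFP array, 2.46-fold higher in the NRF3 cells. Insr lies near the end of the gene order on chromosome 8, and its 25 nearest detected genes, all on 1 side, had a median difference of 0.52. Relative to these neighbours its difference was 0.78, which is under 2-fold. The part of the neighbourhood in the difference was not tested.

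Kit, the receptor for stem cell factor, read 6.24 on the NRF3 array and 5.97 on the GFP array, under the control median on both. It passed the detection floor on both arrays and is still not shown to be expressed. Its ligand gene Kitl, with 5.78 on the NRF3 array and 5.63 on the GFP array, did not reach the floor. Fgfr1, a fibroblast growth factor receptor, read 2.81 on both arrays, near the bottom of the scale. Fgfr1 also lies on chromosome 8, with a median difference of 0.72 among its 50 nearest detected genes, and its equal values at the bottom of the scale carry no information on expression. Of its ligand genes, Fgf1 was detected by the floor, with 6.34 on the NRF3 array and 5.95 on the GFP array, both under the control medians, and Fgf2 and Fgf5 were not. Pdgfa, which encodes a ligand of the PDGF receptor alpha, read 7.52 on the NRF3 array and 8.42 on the GFP array, 1.87-fold lower in the NRF3 cells. The NRF3 value of Pdgfa lay between the median and the upper quartile of the control rows, so the size may depend on background.

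Among the 9 receptor genes, 1 was higher by at least 2-fold on the NRF3 array and 1 lower by at least 2-fold. Over all 19505 named genes, 4.87% were that much higher and 6.76% that much lower. With 9 genes these counts set nothing apart. All 9 genes had a median difference of 0.19, beside 0.01 over all named genes. The 6 receptor genes that reached the detection floor had a median of 0.10, beside -0.07 over all detected genes, of which 6.75% were higher and 11% lower by 2-fold or more. Only 3 of the 9, Met, Erbb3 and Tyro3, lay above the upper quartile of the control rows on both arrays, and 4, Kit, Mertk, Egfr and Fgfr1, lay under the control medians on both.

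**Figure D2:**
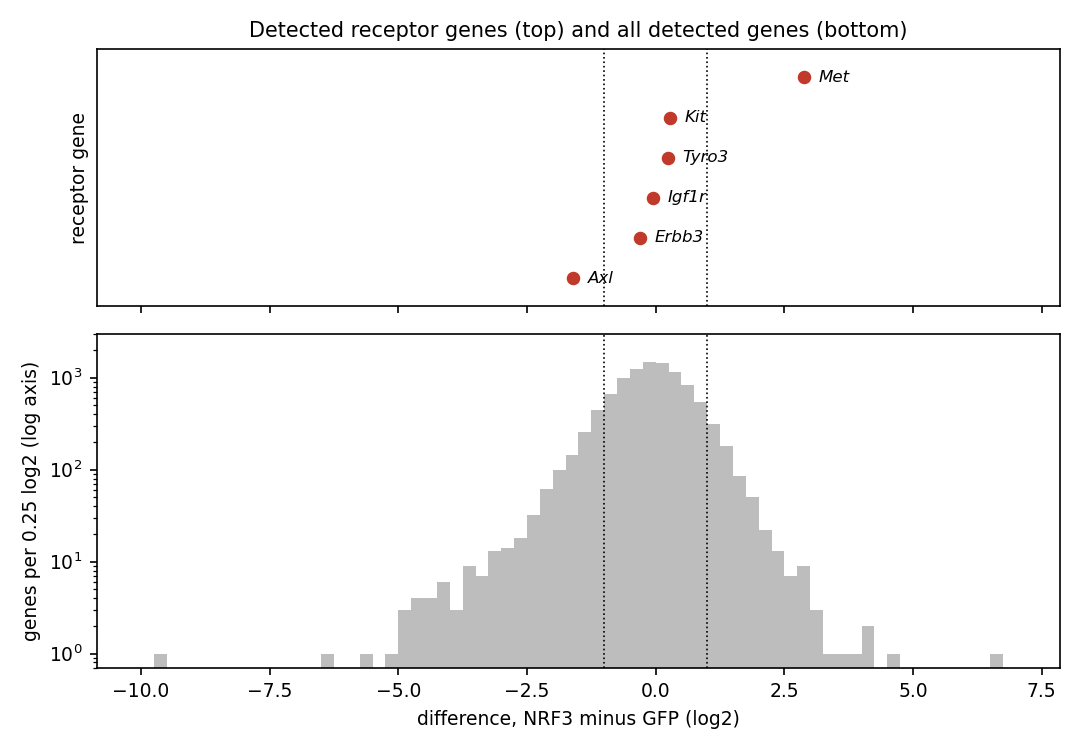
Differences NRF3 minus GFP (log2, horizontal axis) of the 6 detected receptor genes (points, top) and of the 10162 detected genes (histogram with a log count axis, bottom), with dotted lines at 2-fold either way. Met, at 2.88, stood in the upper tail, Axl, at -1.60, lay beyond the lower line, and the other 4 lay between the lines.

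Of 48 further receptor tyrosine kinase genes, 46 had a named probe set and 17 were detected. Of these 17, the 2-fold rule was passed upward in the NRF3 cells by 2, Ephb4 and Insr, and downward by 3, Erbb2, Aatk and Epha7. Over all detected genes, 6.75% passed it upward and 11% downward. The median of the 17 was 0.08, but -0.22 with neighbour medians subtracted and 0.61 with the detection floor at the 75th percentile of values. Ephb4, a receptor for membrane-bound ephrin-B ligands, read 10.4 on the NRF3 array and 8.31 on the GFP array, 4.28-fold higher in the NRF3 cells, with both values above the upper quartiles of the control rows. Aatk, at -1.39, lay under the control medians on both arrays and Epha7, at -1.37, on the NRF3 array. Both Aatk and Epha7 passed the detection floor on the GFP array only, where they were higher. Relative to its neighbours on chromosome 11 the difference of Aatk was -0.94. Ephb6 lay at 1.19 with both values under the floor. In all, 32 of the 46 lay under the control medians on both arrays.

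**Figure D3:**
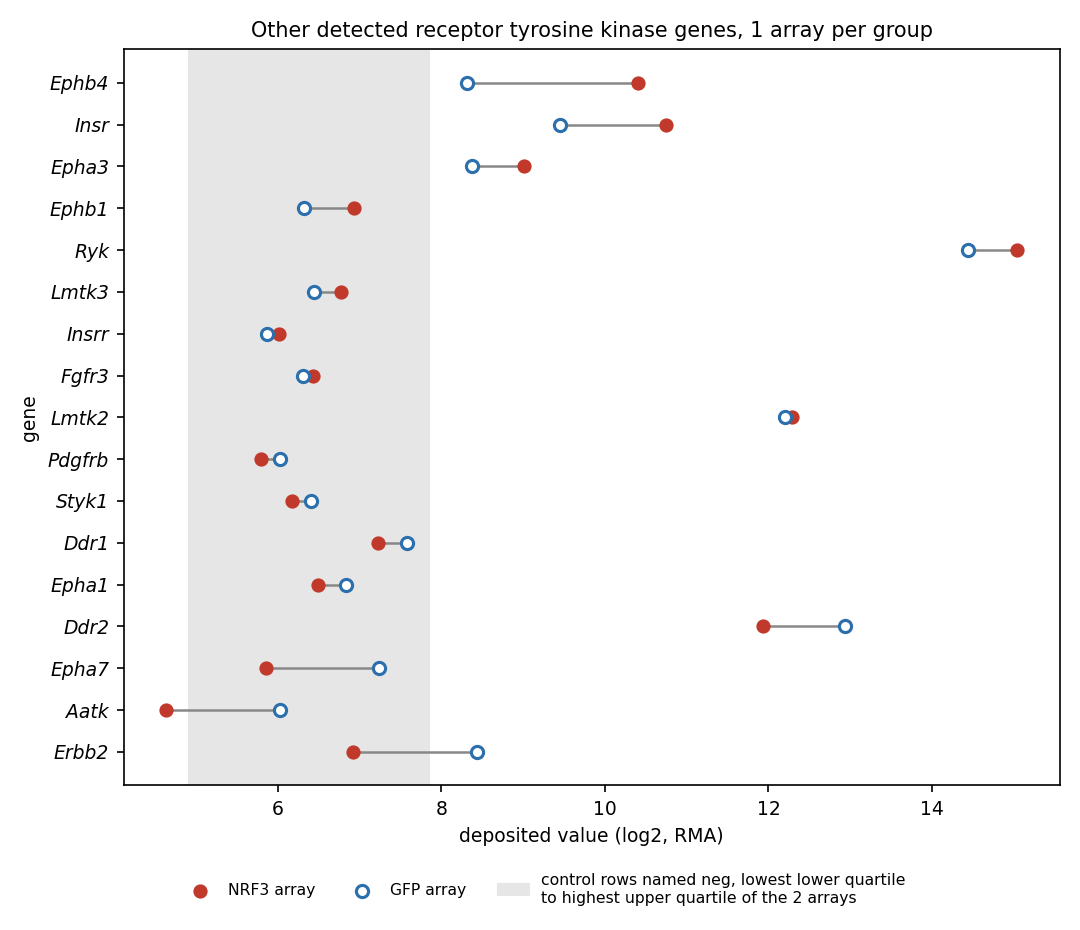
Deposited log2 RMA values (horizontal axis) of the 17 other receptor tyrosine kinase genes that were detected, ordered by difference, on the NRF3 array (filled) and the GFP array (open); the grey band is that of the control rows named neg (4.91 to 7.85). Ephb4 and Insr were higher on the NRF3 array above the band, and Erbb2 had its GFP value above the band and its NRF3 value within it.

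Ligand genes were mostly dim. Of 23 ligand genes with a named probe set, 7 were detected, 1 of them, Pros1, passed the 2-fold rule downward and 0 passed it upward. The shares over all detected genes were 11% downward and 6.75% upward. The median of the 7 was 0.06, but -0.35 with neighbour medians subtracted. On both arrays 19 of the 23 lay under the control medians.

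Co-receptors and proteins that bind or process ligands were next. Of 8 detected, 4 passed the 2-fold rule downward in the NRF3 cells, 0 passed it upward and 4 did not pass it, beside 11% downward over all detected genes. The median of the 8 was -1.01, beside -0.07 over all detected genes, and that of all 18 named genes, without the floor, was -0.14. The list was chosen with earlier results of these data known, so these contrasts are a description and not independent evidence. Nrp2, a co-receptor for semaphorins and vascular growth factors, read 11.4 on the NRF3 array and 13.9 on the GFP array, 5.81-fold lower in the NRF3 cells. Igf2r, which takes up IGF2 for breakdown in lysosomes, read 10.8 on the NRF3 array and 13.3 on the GFP array, 5.49-fold lower. Fgfrl1, a fibroblast growth factor receptor without a kinase domain, lay at -1.13, and Igfbp4, a binding protein for insulin-like growth factors, at -1.03. These 4 genes lay above the upper quartiles of the control rows on both arrays. After median centring over all detected genes, 3 co-receptor genes passed the 2-fold rule downward.

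Adaptors and proximal signalling proteins went both ways. Of 27 detected, 3 passed the 2-fold rule upward in the NRF3 cells, 1 passed it downward and 23 did not pass it. Their median was 0.05, beside -0.07 over all detected genes, of which 6.75% passed the rule upward and 11% downward. Shc1, the adaptor that links receptors to GRB2 and RAS, read 12.2 on the NRF3 array and 10.5 on the GFP array, 3.24-fold higher in the NRF3 cells. Irs2, an adaptor of the insulin and insulin-like growth factor receptors, lay at 1.64 and Gab1, the docking protein of MET, at 1.10. Irs2 and Gab1 lie on chromosome 8, with neighbour medians of 0.52 and 0.07, and relative to these they lay at 1.12 and 1.03. The GFP value of Irs2, at 5.22, was under the control median, so the size depends on background. That of Gab1, at 6.99, lay between the median and the upper quartile of the control rows, so its size may depend on background too. Vav2 lay at -2.18 with an NRF3 value of 5.18, also under the control median. Irs2 and Vav2 each passed the detection floor on 1 array only, the one where the gene was higher.

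Among 20 detected genes of receptor ubiquitination, shedding, sorting and inhibition, the 2-fold rule was passed upward in the NRF3 cells by 1 and downward by 3, and the median was -0.18. Of all detected genes, 6.75% passed it upward and 11% downward. Stam2, of the endosomal sorting machinery, lay at 1.15. Adam10, a protease that sheds the outer part of receptors such as MET and AXL, read 10.6 on the NRF3 array and 12.6 on the GFP array, 3.85-fold lower in the NRF3 cells. Timp3, a metalloprotease inhibitor, lay at -1.45 with an NRF3 value under the control median. Errfi1, an inhibitor of ErbB receptors, lay at -1.07, and relative to its neighbours on chromosome 4 at -0.72.

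Of 12 detected tyrosine phosphatase genes, 1 passed the 2-fold rule upward in the NRF3 cells and 3 downward, beside 6.75% and 11% of all detected genes. The median of the 12 was -0.53, and that of all 18 named ones, without the floor, was 0.09. Ptpn12 lay at 1.21 and, relative to its neighbours on chromosome 5, at 0.99. Ptprs, a receptor-type phosphatase, read 13.2 on the NRF3 array and 15.3 on the GFP array, 4.32-fold lower in the NRF3 cells. Ptpn14 lay at -1.21 and Ptprg at -1.17. Ptpn14 lies on chromosome 1, where its neighbours had a median of -0.58, and relative to them it lay at -0.62.

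Genes that ERK signalling induces are a common readout of receptor activity. Of 11 detected, 1 passed the 2-fold rule upward in the NRF3 cells, 2 passed it downward and 8 did not pass it, and the median was -0.09. Dusp6, a phosphatase of ERK that ERK itself induces, read 7.01 on the NRF3 array and 9.61 on the GFP array, 6.05-fold lower in the NRF3 cells. Its NRF3 value lay between the median and the upper quartile of the control rows, so the size may depend on background. Etv1, an ETS factor, lay at -1.23 with an NRF3 value under the control median, and Fosl1, an AP-1 subunit, at 1.48 with both values between the control medians and upper quartiles. Of 10 detected genes that FOXO factors induce when PI3K-AKT signalling is low, 3 passed the rule upward and 2 downward, and the median was 0.67. For both lists, the shares over all detected genes were 6.75% upward and 11% downward, with a median of -0.07. Both lists were chosen with earlier results of these data known, so these contrasts are a description and not independent evidence. Fbxo32, a ubiquitin ligase subunit, was 2.82-fold higher, Klf6 lay at 1.23 and Ccng2 at 1.19, while Txnip, an inhibitor of thioredoxin, lay at -1.99 and Bcl2l11, which encodes the apoptosis inducer BIM, at -1.97. The GFP value of Fbxo32 and the NRF3 value of Bcl2l11 lay under the control medians and under the detection floor. These genes therefore passed the floor only on the array where they were higher. Relative to its neighbours on chromosome 5 Ccng2 lay at 0.89.

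Of 16 transcription factor genes known to act on these receptors, 13 were detected, and their median was 0.19. Among the 13, 1 passed the 2-fold rule upward in the NRF3 cells and 0 downward, beside 6.75% and 11% of all detected genes. The 1 was Sox9, a factor of neural crest cells, which read 10.0 on the NRF3 array and 7.24 on the GFP array, 6.73-fold higher in the NRF3 cells, from a GFP value between the median and the upper quartile of the control rows. Mitf read 15.2 on the NRF3 array and 14.3 on the GFP array, 1.91-fold higher in the NRF3 cells. Sox10, which acts on Mitf and Erbb3 in the lineage, read 15.2 on the NRF3 array and 15.6 on the GFP array, a difference of -0.49.

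**Figure D4:**
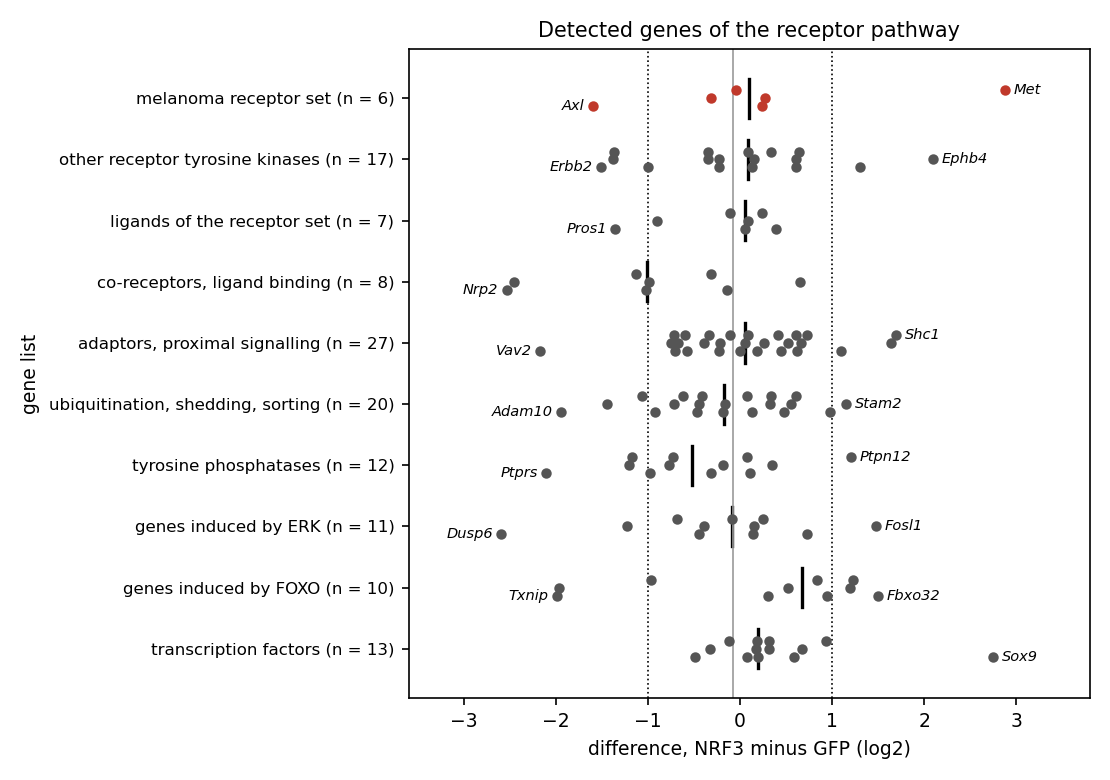
Differences NRF3 minus GFP (log2, horizontal axis) of the detected genes of each list (points), with the list median (short black bar), the median of all detected genes (grey line) and dotted lines at 2-fold either way. Met and Sox9 are the points farthest to the right, and Dusp6, Nrp2 and Igf2r those farthest to the left.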

How the data were processed

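Total RNA from 2 samples, 1 per group, was measured on single-colour Affymetrix arrays from 100 ng of RNA each, per the labels' protocols. The deposited file holds 1 log2 value per probe set and array, from Affymetrix Expression Console with RMA, according to the submitters' processing notes, and its version and genome build were not given in the sources used here. The 279 rows on the NRF3 array and 288 on the GFP array above 16, where the log2 of a 16-bit reading ends, show that the scale is not plain log2 brightness. All folds given here hold only as far as differences on that scale are log2 ratios. Probe levels of different genes were not ranked against each other, beyond the detection floor, the place among the control rows and the genes of like mean value set beside Met. The number of arrays limits the precision.

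Of 28846 rows, 19572 probe sets had 1 gene symbol in the platform annotation. For the 55 genes with several, the brightest by mean was used, and none of the receptor genes had several. Differences are NRF3 minus GFP, described with a 2-fold rule of size and no test. The 50 nearest detected genes on a chromosome (25 on each side, RefSeq order) gave neighbour medians, with fewer near chromosome ends: 38 for Erbb3, 49 for Ptpn14 and 25 for Insr among the genes given such a value. The receptor genes and lists were chosen with earlier results of these data known. Named were all receptor genes, Nfe2l3, Mitf, Sox10, detected ligands and, per list, up to 2 highest and 2 lowest past 2-fold; others complete a count and were chosen after their values were seen, as were undetected ligands, Cd8a and Ephb6. The protein stretches planned were not analysed here. Steps were tested on simulated data. Python 3.11.15, pandas 2.3.3 and statsmodels 0.14.6 were used.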

Additional observations from a re-analysis of the deposited data

How the results depend on the processing

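With 1 array per group no difference has a replicate check. No paired analysis was possible because each group holds 1 array. The difference of Met stayed between 2.79 and 2.96 under the 7 alternatives. Averaging over probe sets and raising low values could not change it, since Met has 1 probe set and values above the control upper quartiles. The difference of Axl lay between -1.83 and -1.30 under 6 of the alternatives, of which averaging over probe sets could not change it either. It was 0.18 with each value raised to the upper quartile of the control rows on its array. That reversal follows from its construction, since the floor is higher on the NRF3 array. Raising both values to the higher control median was chosen after seeing the data. It set the difference of Mertk to 0, while subtracting neighbour medians set that of Mertk to 1.21 and that of Fgfr1 to -0.72. The median of the detected receptor genes ranged from -0.10 with neighbour medians subtracted to 0.21 after quantile normalization. With a 4-fold rule 0 receptor genes were lower. With a 1.5-fold rule, the counts that changed by over 1.5 times were 5 higher for other receptors, 2 lower for ligands, 1 higher for co-receptors, 7 higher and 6 lower for adaptors, 3 higher and 6 lower for sorting genes, 6 lower for phosphatases, 2 higher for ERK-induced genes, 5 higher for FOXO-induced genes and 4 higher for transcription factors. With a detection floor at the 75th percentile, 0 other receptors were lower, 1 adaptor was higher and 0 lower, 0 ERK-induced genes were higher and 1 lower, and 1 FOXO-induced gene was higher and 1 lower. Median centring, quantile normalization, trend subtraction and neighbour subtraction each gave 2 higher sorting genes, and median centring and neighbour subtraction 2 higher transcription factors. Neighbour subtraction left 1 higher receptor among the others and 0 higher phosphatases. Neighbour subtraction also turned the sign of list medians near 0, to -0.22 for other receptors, -0.35 for ligands, -0.04 for adaptors and 0.05 for sorting genes, and the floor at the 75th percentile set that of other receptors to 0.61. Without a floor the co-receptor median was -0.14, the phosphatase median 0.088 and the adaptor median -0.01. The cause of these changes was not tested, beyond the number of genes each rule leaves.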
